A study of Mus musculus with 8 samples.

Results

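Oca2 and 7 other genes of pigment cells, Pmel, Tyr, Tyrp1, Dct, Mitf, Mlana and Slc45a2, were read out in the embryonic mouse lens. They were chosen by gene symbol and are 8 of the 43432 gene IDs in the count table. The choice was made with the genotype contrast of these libraries known, so the genotype differences of the 8 genes are given as a description, without p-values, and no call on them is read as evidence. RNA sequencing of polyadenylated RNA gave 8 libraries from lenses at embryonic day 14.5. Of these, 4 were from control lenses and 4 from lenses with a conditional knockout of Mettl3, here called CKO, and each genotype had libraries a to d. Mettl3 encodes the catalytic subunit of the RNA m6A methyltransferase. The labels give no Cre driver, no strain and no number of lenses or animals per library, and they do not say which alleles the control lenses carried. Nothing in the labels says that the 4 libraries of a genotype came from separate animals, so p-values measure only the spread between libraries, which may be technical.

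Library totals lay between 19110170 and 56098211 counts. Mettl3 was at 21.4 to 28.4 CPM (reads relative to the TMM-scaled library total) in the control libraries and at 8.11 to 15.9 CPM in the CKO libraries, without overlap. The 9 lens markers together took 122900 to 194800 CPM in every library, so the labelled tissue was matched by its own transcripts. Libraries a and b of each genotype stand together in the records, apart from libraries c and d, and are called set 1 and set 2. No label calls them batches, and the set was a term in the fit. A gene was called where edgeR's quasi-likelihood test gave an adjusted p below 0.05. For genotype this held for 10.5% of the 16241 genes that passed the filter on low counts, with 6.5% called higher and 4.01% called lower in CKO.

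Melanin is made in melanosomes, organelles that arise from endosomes in melanocytes and in the retinal pigment epithelium. MITF, a basic helix-loop-helix transcription factor, binds E-box sequences such as the M-box and turns on genes of melanin synthesis. PMEL forms the fibrils on which melanin is laid down, and tyrosinase (Tyr), Tyrp1 and dopachrome tautomerase (Dct) carry out steps of the synthesis. OCA2 and SLC45A2 are membrane transporters that affect the pH of melanosomes, and MLANA is a small melanosomal membrane protein that takes part in PMEL maturation. Loss of OCA2 function lightens coat and eyes in the mouse (the pink-eyed dilution locus) and causes a form of albinism in people. The lens itself is transparent and makes no melanin, whereas pigment cells lie close by in the eye.

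Promoter windows from RefSeq (GRCm38.p6), running from 250 bases before to 50 bases after an annotated start, were found for 5 of the 8 genes, in 7 windows of which 3 belong to Mitf. Pmel, Mlana and Slc45a2 are named only. Those of Oca2 and of the melanin synthesis genes are shown because the RNA of Oca2 and that of the melanin synthesis genes lay on opposite sides of the control levels in CKO a, c and d. They are Oca2 at chr7:56239509-56239808 (plus strand), Tyr at chr7:87493463-87493762 (minus strand), Tyrp1 at chr4:80833963-80834262 (plus strand) and Dct at chr14:118052197-118052496 (minus strand). Each is written from 5′ to 3′ on the strand of its gene, with matches to CATGTG or TCATGTG on either strand in capitals.
Oca2: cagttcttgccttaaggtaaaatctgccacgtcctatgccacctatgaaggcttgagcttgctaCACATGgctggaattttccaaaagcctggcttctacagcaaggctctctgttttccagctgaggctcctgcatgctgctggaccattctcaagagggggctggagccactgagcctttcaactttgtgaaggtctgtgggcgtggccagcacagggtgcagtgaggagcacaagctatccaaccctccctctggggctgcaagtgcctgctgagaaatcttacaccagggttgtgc
Tyr: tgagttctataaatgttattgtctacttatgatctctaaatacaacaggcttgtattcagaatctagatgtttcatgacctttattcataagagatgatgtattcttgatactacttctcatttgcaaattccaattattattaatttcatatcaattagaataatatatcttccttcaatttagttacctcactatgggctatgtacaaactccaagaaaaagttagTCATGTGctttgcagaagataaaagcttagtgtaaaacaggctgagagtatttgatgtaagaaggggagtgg
Tyrp1: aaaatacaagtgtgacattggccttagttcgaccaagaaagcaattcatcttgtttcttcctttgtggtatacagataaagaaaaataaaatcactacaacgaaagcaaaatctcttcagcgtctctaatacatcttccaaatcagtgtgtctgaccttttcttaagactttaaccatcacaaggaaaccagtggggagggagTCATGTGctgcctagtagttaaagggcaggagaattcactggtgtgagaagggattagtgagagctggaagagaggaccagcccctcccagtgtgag
Dct: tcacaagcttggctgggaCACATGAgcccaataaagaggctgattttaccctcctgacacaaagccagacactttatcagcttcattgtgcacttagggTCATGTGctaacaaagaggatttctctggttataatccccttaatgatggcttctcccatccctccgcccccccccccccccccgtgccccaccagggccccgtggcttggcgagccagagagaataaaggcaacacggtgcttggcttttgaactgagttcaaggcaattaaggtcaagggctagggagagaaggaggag

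The M-box TCATGTG, which contains CATGTG, began 22 bases before the start in Tyr and 47 bases before it in Tyrp1. Dct held it at 151 bases before the start and again, on the other strand, at 232 bases. In Oca2 the window held CATGTG on the other strand at 186 bases before the start, and TCATGTG was not among its letters. Both motifs were searched on both strands, as was CACGTG, which none of the 7 windows held, and the Mitf windows held none of the 3 motifs. Over 32851 RefSeq windows of the same length, TCATGTG was present in 3.77%, CATGTG in 14.15% and CACGTG in 7.15%. A match is a description of letters and not evidence of binding.

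Oca2 (ENSMUSG00000030450, mm10 chromosome 7, 56239760 to 56536518, plus strand) had CKO levels that all lay under its control levels. Its control values were 5.35, 6.17, 5.23 and 5.64 CPM in libraries a to d, from 140, 140, 215 and 299 reads. In CKO it was at 3.51, 2.38, 1.32 and 1.90 CPM, from 67, 59, 75 and 98 reads. The control libraries agree within counting noise, since their coefficient of variation of 7.48% is close to the 7.46% that counting alone gives. The CKO libraries varied more, by 40.9% against a counting error of 11.8%. Mean levels were 5.60 ± 0.419 CPM in control and 2.28 ± 0.932 CPM in CKO (SD, n = 4 each), a control level 2.46-fold that of CKO. The fitted log2 difference was -1.37 (SE 0.25), with -0.99 in set 1 and -1.72 in set 2. The genotypes failed to overlap in 16.3% of all genes tested, with CKO lower in 7.37% and higher in 8.95%. In bulk RNA, fewer cells of a type and less RNA per cell cannot be told apart, for Oca2 and for every gene below.

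**Figure D1:**
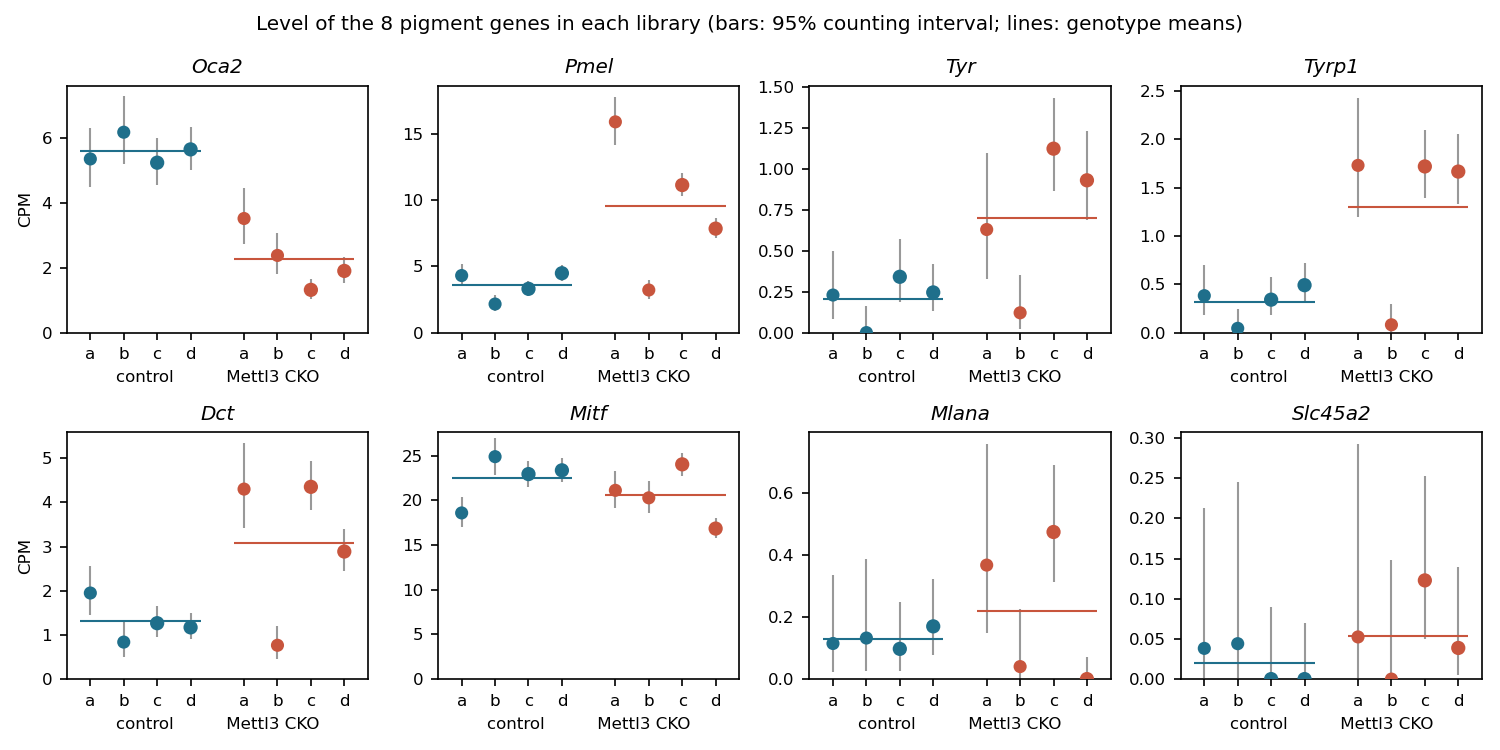
Level of each of the 8 genes in each library, in CPM, with control and CKO libraries a to d as points. Oca2 is the gene whose CKO libraries (1.32 to 3.51 CPM) all lie below its control libraries (5.23 to 6.17 CPM), and CKO b is the lowest CKO library in Pmel, Tyr, Tyrp1 and Dct.

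The fibril protein and the melanin synthesis genes lay the other way. Pmel (ENSMUSG00000025359, mm10 chromosome 10, 128704195 to 128720238, plus strand) was at 4.32, 2.16, 3.31 and 4.49 CPM in control libraries a to d and at 15.9, 3.22, 11.2 and 7.87 CPM in CKO. CKO a, c and d lay above every control library, and CKO b lay inside the control range. The means were 3.57 ± 1.07 and 9.55 ± 5.36 CPM (SD, n = 4 each), with a log2 difference of 1.41 (SE 0.47). Pmel overlaps Cdk2 and Dgka, both on the opposite strand, with 7841 and 1494 reads over the 8 libraries. Since the strand setting of the counting is not given in the sources used here, reads of these genes cannot be told apart where they overlap.

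Dct (ENSMUSG00000022129, mm10 chromosome 14, 118052244 to 118012790 on the minus strand) had 1.95, 0.837, 1.27 and 1.17 CPM in control libraries a to d. In CKO it had 4.30, 0.765, 4.35 and 2.89 CPM. CKO a, c and d were again above all controls, whereas CKO b, with 19 reads, was below all 4 of them. The means were 1.31 ± 0.466 and 3.08 ± 1.68 CPM (SD, n = 4 each), with a log2 difference of 1.22 (SE 0.50).

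Tyrp1 (ENSMUSG00000005994, mm10 chromosome 4, 80834123 to 80851719, plus strand) was near its detection limit in control lenses, at 0.382, 0.0441, 0.341 and 0.491 CPM from 10, 1, 14 and 26 reads. CKO a, c and d stood at 1.73, 1.72 and 1.67 CPM from 33, 98 and 86 reads. CKO b had 2 reads, or 0.0805 CPM, with an exact 95% Poisson interval of 0.00975 to 0.291 CPM that covers counting error only. The means were 0.314 ± 0.191 and 1.30 ± 0.813 CPM (SD, n = 4 each), with a log2 difference of 2.0 (SE 0.75).

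Tyr (ENSMUSG00000004651, mm10 chromosome 7, 87493512 to 87424771 on the minus strand), the enzyme of the first step of melanin synthesis, had the fewest reads of these 4 genes. Control libraries held 6, 0, 14 and 13 reads, or 0.229, 0, 0.341 and 0.245 CPM, and the 0 in control b allows a level of up to 0.132 CPM (3 counts). CKO libraries held 12, 3, 64 and 48 reads, or 0.629, 0.121, 1.12 and 0.930 CPM. As for Pmel, CKO a, c and d lay above all controls and CKO b among them, but CKO c was the highest library here. The means were 0.204 ± 0.144 and 0.701 ± 0.437 CPM (SD, n = 4 each), with a log2 difference of 1.72 (SE 0.67).

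The size of these differences depended on single CKO libraries. With CKO b left out, the log2 differences were 1.71 for Pmel, 2.01 for Tyr, 2.38 for Tyrp1 and 1.61 for Dct. Without CKO a the log2 differences were 0.819, 1.33, 1.19 and 0.771 for Pmel, Tyr, Tyrp1 and Dct. Oca2 was less dependent, with -1.57 without CKO a and -1.32 without CKO b. Of the 8 genes, 6 passed the filter on low counts and 1 of those, Oca2, was called for genotype, lower in CKO. The share of all genes called was 10.5%, and nothing is read from the 1 call because the genes were chosen with this contrast known.

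Mitf (ENSMUSG00000035158, mm10 chromosome 6, 97807052 to 98021349, plus strand), the regulator, differed from both patterns. It was at 18.6, 24.9, 23.0 and 23.4 CPM in control libraries a to d and at 21.1, 20.3, 24.0 and 16.9 CPM in CKO. The ranges overlapped, the means were 22.5 ± 2.70 and 20.6 ± 2.96 CPM (SD, n = 4 each), and the log2 difference of -0.13 was smaller than its SE of 0.14. Mitf is also used by cells other than pigment cells, and it was left out of the summed level of melanosomal genes for that reason.

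Mlana and Slc45a2 were too low for the filter. Mlana (ENSMUSG00000024806, mm10 chromosome 19, 29697824 to 29708634, plus strand) had 3, 3, 4 and 9 reads in control and 7, 1, 27 and 0 reads in CKO libraries a to d. Of the 35 CKO reads, 27 were in CKO c, and CKO d had none, although Pmel and Tyrp1 were high there. Slc45a2 (ENSMUSG00000022243, mm10 chromosome 15, 11000721 to 11029233, plus strand) had 12 reads over the 8 libraries, 7 of them in CKO c. A difference between genotypes was not detectable for these 2 genes at this depth.

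Per length of exon, on the RPKM scale (CPM divided by exon length in kilobases), control lenses had the order Mitf (mean 3.62), Pmel (1.56 ± 0.469), Oca2 (1.41 ± 0.106), Dct (0.221), Mlana (0.122), Tyrp1 (0.111), Tyr (0.0287) and Slc45a2 (0.00689). Pmel and Oca2 did not differ beyond their spread there, nor did Mlana, which rests on 3 to 9 reads a library, and Tyrp1. In CKO lenses Pmel (4.17 ± 2.34 RPKM) and Mitf (3.32 RPKM) came first and did not differ beyond the spread of Pmel. Oca2 followed at 0.575 ± 0.235 RPKM, beside Dct at 0.522 RPKM and Tyrp1 at 0.459 RPKM.

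Whether Oca2 followed the other pigment genes was read within libraries. Counted against Pmel in the same library, there were 1.24, 2.86, 1.58 and 1.26 Oca2 reads per Pmel read in control libraries a to d. In CKO there were 0.220, 0.738, 0.118 and 0.241. The means were 1.73 ± 0.766 and 0.329 ± 0.277 (SD, n = 4 each). The ratio does not depend on library scaling, but its separation by genotype restates the levels for which the genes were chosen. The summed level of Pmel, Tyr, Tyrp1, Dct, Mlana and Slc45a2 was 7.03, 3.22, 5.35 and 6.57 CPM in control and 23.0, 4.23, 18.95 and 13.4 CPM in CKO. CKO a, c and d lay above all controls in this sum, and CKO b lay inside the control range.

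**Figure D2:**
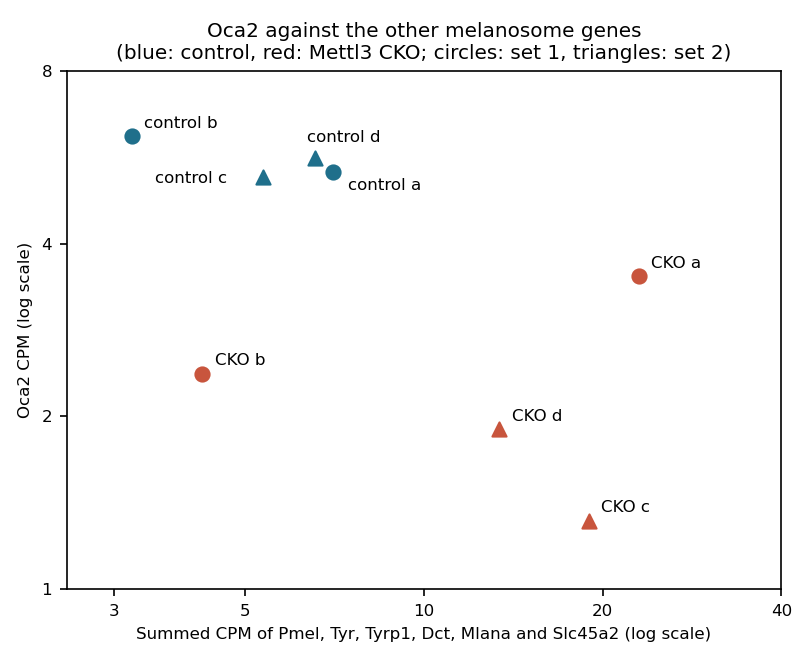
Oca2 level in CPM against the summed CPM of Pmel, Tyr, Tyrp1, Dct, Mlana and Slc45a2, with a labelled point per library and both axes on a log scale. The control libraries form a group at high Oca2. The CKO libraries spread widely along the sum at lower Oca2, and CKO b lies inside the control range of the sum.

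Inside a genotype, Oca2 and the other genes had no common order. CKO b had the lowest sum of the 6 genes in its genotype, with the second highest Oca2 level, and CKO c had a high sum with the lowest Oca2 level. Within pairs of libraries of 1 genotype and set, Oca2 and the pigment score (the mean log2 CPM of the 6 genes) moved the same way in 2 of 4 pairs, in control c and d and in CKO a and b. Oca2 differed between control libraries only within counting noise, so its direction in the control pairs cannot be read. Because Oca2 falls into 2 groups by genotype and each genotype has 4 libraries, no correlation of Oca2 with the score is given as a relation.

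Pmel, Tyr, Tyrp1 and Dct, in contrast, varied together over the libraries, although their orders were not identical. Their 6 pairs had Pearson's r of 0.85 to 0.946 and Spearman's rho of 0.857 to 1 over the 8 libraries, in log2 CPM. For deviations from the mean of each genotype and set, r was 0.843 to 0.977. The 2 libraries of a genotype and set deviate by the same amount in opposite directions, so this r rests on 4 pairs of libraries. For the levels themselves, without the 2 libraries farthest from the median, r was 0.848 to 0.949. These values are a description, since the genes share libraries and depth, and CKO b and control b are low in all 4 genes. Mitf had r between -0.23 and -0.353 with the same 4 genes.

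The choice of genes did not use the contrast between the sets, which could therefore be tested. None of the 6 tested genes was called for set, where 0.425% of all genes were (0.0985% higher and 0.326% lower in set 2), and none had an unadjusted p under 0.05 by edgeR. DESeq2 called none of them either. Set 2 against set 1, the log2 difference was -0.46 (SE 0.24) for Oca2, with an edgeR adjusted p of 0.457, and 1.40 (SE 0.68) for Tyr, with an adjusted p of 0.412. For Tyrp1 it was 0.93 (SE 0.74), with an adjusted p of 0.644. Pmel, Dct and Mitf had log2 differences between 0.04 and 0.18, with adjusted p between 0.910 and 0.935.

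The genotype difference itself was compared between the sets. The interaction of genotype and set was called for none of the 16241 genes by edgeR, while 2662 had an unadjusted p under 0.05 and DESeq2 called 626. For Oca2 the interaction, the genotype difference in set 2 minus that in set 1, was -0.79 (SE 0.44) on the log2 scale, with an adjusted p of 0.389. For Dct the interaction was 0.73 (SE 1.01, adjusted p = 0.751), and for Pmel, Tyr, Tyrp1 and Mitf it lay between -0.26 and 0.23, with adjusted p between 0.867 and 0.998.

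The genes most like Oca2 were taken by Pearson's r of log2 CPM over the 8 libraries, over 13615 genes that averaged 1 CPM or more. The nearest were Nupr1 (a stress-induced nuclear protein), Morn2, Gstp1 (a glutathione S-transferase with a close copy, Gstp2, that can share reads), Ctnna2 (an alpha-catenin), Smyd2 (a lysine methyltransferase) and 1300017J02Rik, each with an r of 0.98. Sfi1 (a centrin-binding protein, r = 0.98) and Eme2 (a partner of the Mus81 endonuclease, r = 0.97) followed. All 8 had lower means in CKO, from 138.4 to 30.05 CPM for Nupr1 and from 423.4 to 316.8 CPM for Gstp1, so the likeness restates the separation of the genotypes. Among the pigment genes, Mitf ranked highest, with 38.6% of genes more like Oca2. For Pmel it was 79.7%, for Tyr 83.5%, for Tyrp1 77.4%, for Dct 78.1%, for Slc45a2 76.3% and for Mlana 53.9%.

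The genes most like the pigment score were others. They were Zfp9 (r = 0.96), 1700086L19Rik (0.96), Il20rb (an interleukin receptor chain, 0.95), Otx1 (a homeobox gene of the developing eye and brain, 0.95), Sp4 (0.94), Col9a1 (a collagen IX chain, 0.93), Snhg18 (0.92) and Slc26a2 (a sulfate transporter, 0.92). None of these 8 was called for genotype. Otx1 had mean levels of 0.754 CPM in control and 4.15 CPM in CKO, with an edgeR adjusted p of 0.0506.

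Other melanosome proteins were called in both directions. Of 16 listed genes, 13 were tested, 1 was higher in CKO, 2 were lower and 10 were not called, beside 6.5% called higher and 4.01% called lower over all genes. The median log2 difference was 0.16, against -0.03 over all genes tested. Slc7a11, the cystine and glutamate exchanger that supplies cystine for glutathione and for pheomelanin, fell from 162.2 ± 21.9 to 53.8 ± 17.7 CPM (log2 -1.59, SE 0.26, edgeR adjusted p = 0.0101). It was called with any 1 library left out. Myo5a, the motor that carries melanosomes along actin, fell from 177.0 ± 4.44 to 129.7 ± 18.5 CPM (log2 -0.46, SE 0.10, edgeR adjusted p = 0.0213). The call on Myo5a was lost without control b or d or without CKO b or d, with adjusted p up to 0.0822.

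Gpnmb, a glycoprotein related to PMEL that macrophages also make, rose from 0.798 ± 0.333 to 2.02 ± 0.971 CPM (log2 1.27, SE 0.31, edgeR adjusted p = 0.0274). Its call was lost in 6 of the 8 fits that left out 1 library, with adjusted p up to 0.0977. Of 5 macrophage markers, 4 were called higher in CKO as well, beside 6.5% of all genes. Among them were C1qc (log2 1.12, edgeR adjusted p = 0.00968) and C1qa (log2 1.07, edgeR adjusted p = 0.0136). Csf1r rose without a call (log2 0.72, edgeR adjusted p = 0.105). The part of macrophages in the Gpnmb result was not tested. The call on C1qc held with each library left out, and that on C1qa was lost without control b or d (adjusted p up to 0.0626). The calls on C1qb and Cx3cr1 were each lost in 6 of the 8 fits, with adjusted p up to 0.108 and 0.141. Trpm1, a cation channel of melanocytes and retina, had 32.8 and 36.6 CPM and an adjusted p of 0.489. Gpr143, Mlph and Mc1r were below the filter.

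**Figure D3:**
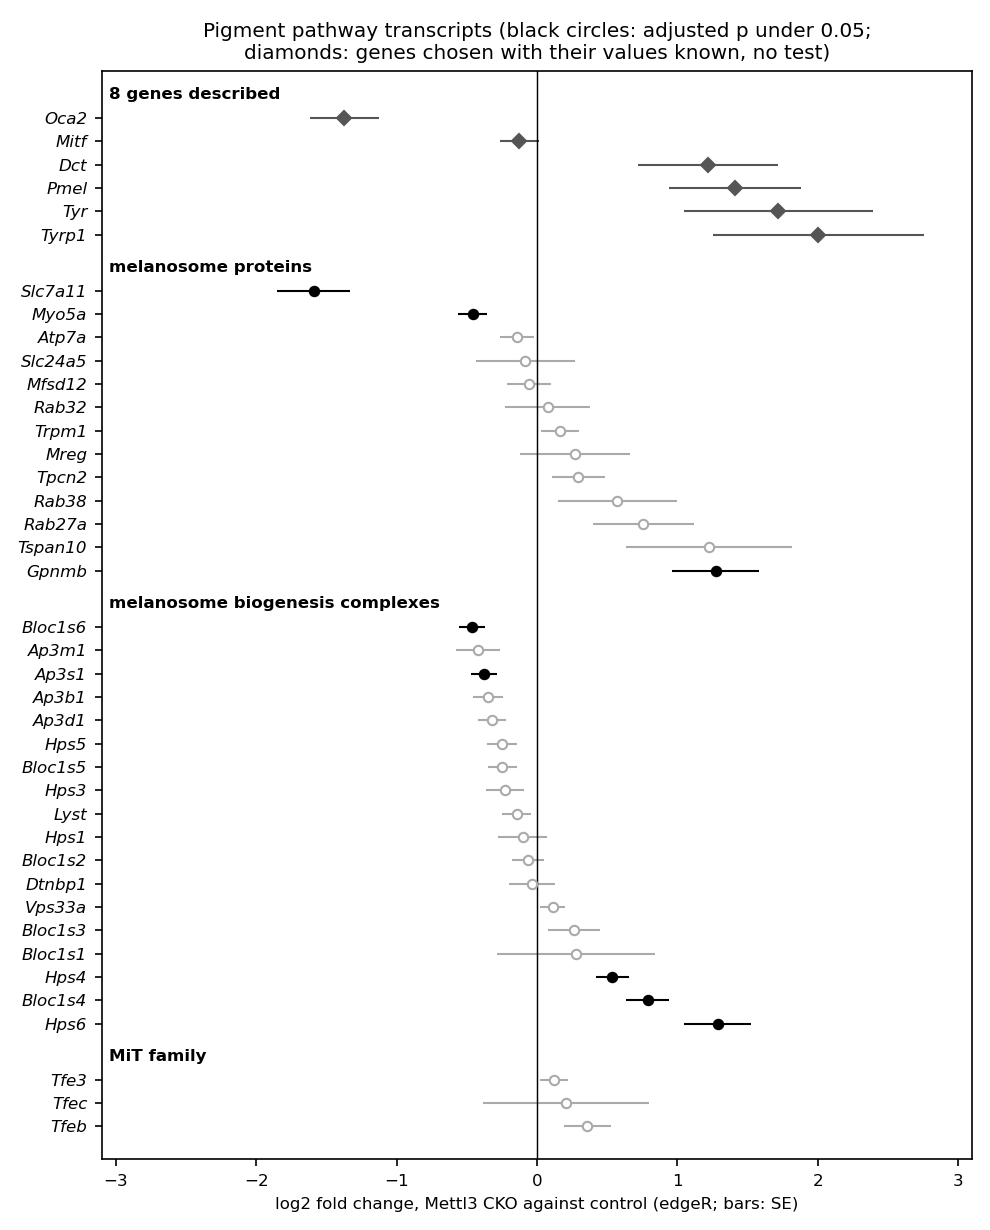
Log2 difference of CKO against control for the tested pigment genes, other melanosome proteins, biogenesis complexes and MiT family genes, with standard errors. Diamonds mark the pigment genes chosen with the contrast known, which are shown as a description, with Oca2 at -1.37. Among the called genes drawn as circles, Slc7a11 (-1.59) lies lowest, and Hps6 (1.29) and Gpnmb (1.27) lie highest.

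The complexes that deliver cargo to melanosomes, which also serve lysosome-related organelles in other cells, were represented by 18 listed genes, all of them tested. Of these, 3 were higher in CKO, 2 were lower and 13 were not called, with a median log2 difference of -0.12 and the same shares over all genes as above. DESeq2 called 3 higher and 4 lower. Hps6, a subunit of the complex BLOC-2, rose from 3.74 ± 0.695 to 9.41 ± 3.20 CPM (log2 1.29, SE 0.24, edgeR adjusted p = 0.00899). Bloc1s4 of BLOC-1 rose from 6.56 to 11.2 CPM (log2 0.79, edgeR adjusted p = 0.011), and Hps4 of BLOC-3 rose from 16.2 to 23.3 CPM (log2 0.54, edgeR adjusted p = 0.0188). Only the Hps6 call of these 3 held with each library left out. Control d ended the call on Bloc1s4 (adjusted p = 0.0568), and control d or CKO b, c or d ended that on Hps4 (up to 0.0797).

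Bloc1s6, the BLOC-1 subunit also called pallidin, fell from 33.3 ± 1.56 to 24.2 ± 1.87 CPM (log2 -0.47, edgeR adjusted p = 0.0114). Ap3s1, the small subunit of the adaptor AP-3, fell from 39.9 ± 3.01 to 30.7 ± 0.957 CPM (log2 -0.38, edgeR adjusted p = 0.0268). Leaving out control d, or CKO d, ended the call on Bloc1s6 (adjusted p up to 0.0539), and leaving out any of 5 libraries (control b or d, CKO b, c or d) ended that on Ap3s1 (up to 0.106). The 3 other AP-3 genes measured had negative log2 differences that were not called, -0.32 for Ap3d1, -0.42 for Ap3m1 and -0.35 for Ap3b1. Ap3d1 and Ap3b1 were called lower without control c (edgeR adjusted p = 0.0102 and 0.00686) and by DESeq2 (adjusted p = 0.0478 and 0.0447), and Ap3b1 also under a filter of 1 CPM in 4 libraries (edgeR adjusted p = 0.0477). BLOC-1 thus held 1 subunit called higher and 1 called lower, and its other listed subunits were not called.

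The relatives of Mitf, which bind related E-boxes, were not called. Tfe3 was at 37.0 and 40.2 CPM, Tfeb at 10.9 and 13.8 CPM and Tfec at 0.366 and 0.446 CPM in control and CKO. Their edgeR adjusted p were 0.486, 0.204 and 0.861. None of the 3 genes had an unadjusted p under 0.05 by edgeR, and DESeq2 called none.

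Oca2 lies between Herc2 and Gabrg3 on chromosome 7. Of 12 listed neighbours, Atp10a and Ube3a lay 2119648 and 2692232 bases away, and the others lay within 1 Mb. Of the 12 genes, 11 were tested and none was called, with a median log2 difference of -0.12, although 4 had an unadjusted p under 0.05. Herc2, a ubiquitin ligase gene that ends 7960 bases before Oca2 begins, was at 137.7 ± 5.33 CPM in control and 117.2 ± 10.03 CPM in CKO. Its CKO libraries lay below the control libraries, with a log2 difference of -0.24 (SE 0.09, edgeR adjusted p = 0.136). Cyfip1 and Ube3a had log2 differences of -0.11 and -0.05. Gabra5, another GABA receptor gene named after its values were seen, had a larger fitted difference than Oca2 at a far lower level, with 0.465 ± 0.294 CPM in control and 0.167 ± 0.136 CPM in CKO (log2 -1.68, SE 0.71, edgeR adjusted p = 0.160). Gabrg3, a GABA receptor gene on the other side that was also chosen after its values were seen, was at 23.6 and 16.6 CPM (log2 -0.50, SE 0.16, edgeR adjusted p = 0.0733). DESeq2 called Gabrg3 (adjusted p = 0.0475), as did the edgeR fit without control c (0.0154), in which Herc2 was called as well (0.0492).

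**Figure D4:**
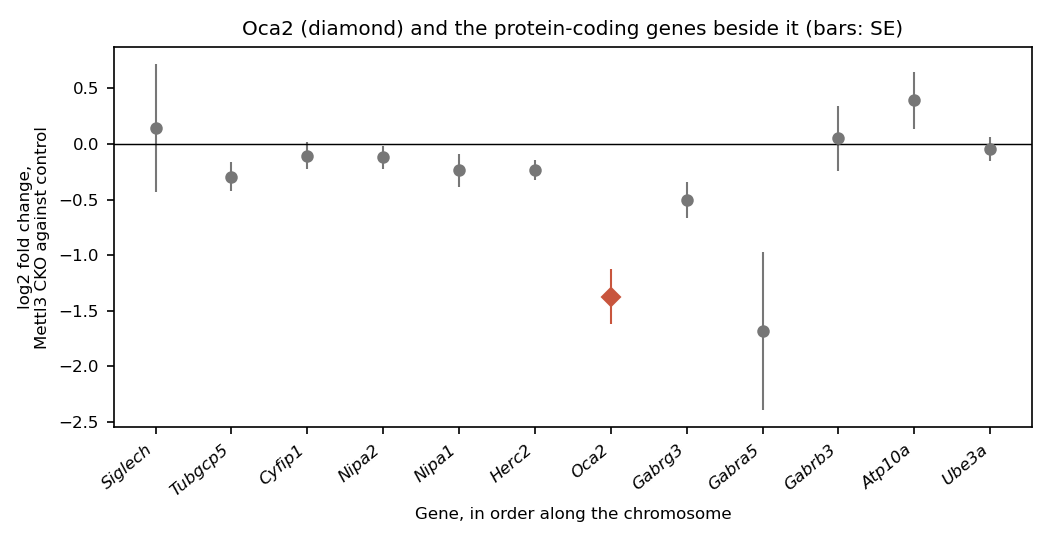
Log2 difference of CKO against control, with standard errors, for Oca2 and its neighbours in their order along the chromosome. Oca2 stands at -1.37, Herc2 at -0.24 and Gabrg3 at -0.50, and none of the neighbours was called by edgeR. Gabra5 lies at -1.68 with a wide error.

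Markers of the pigment cell lineages were counted beside these genes. Of 12 markers of the retinal pigment epithelium, 8 were tested, 1 was higher in CKO, beside 6.5% of all genes, and 7 were not called. The median log2 difference of the tested markers was 0.30. The visual cycle gene Rpe65 had 0 reads in all 8 libraries, Rgr in 7 and Lrat in 6. These genes were named for their low counts after the counts had been seen, and do not stand for the list. The 1 gene called was Serpinf1, which encodes the secreted factor PEDF. Serpinf1 rose from 6.74 ± 1.30 to 15.2 ± 1.60 CPM (log2 1.20, SE 0.16, edgeR adjusted p = 0.00178), and its call held with each library left out. The summed level was 75.2 to 113.1 CPM in control and 78.9 to 94.4 CPM in CKO. Most of it was Stra6, the vitamin A transporter, at 82.6 and 63.1 CPM (edgeR adjusted p = 0.0967, and 0.00935 without control c). Otx2 was at 0.865 ± 1.14 CPM in control and 2.07 ± 1.78 CPM in CKO, without a call (log2 1.43, SE 1.07, edgeR adjusted p = 0.450). Rdh5 lay the other way, also without a call (log2 -0.49, edgeR adjusted p = 0.235). In the fit without control a, Otx2 was called, with a log2 difference of 3.01 (edgeR adjusted p = 0.0324).

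Of 8 markers of neural crest melanocyte precursors, 5 were tested and none was called. By unadjusted p under 0.05 there were 2, and DESeq2 called none. Mc1r had 0 reads in 7 libraries, and Sox10 was at 0.507 and 0.370 CPM in control and CKO. The summed level was 114.2 to 173.1 CPM in control and 95.2 to 124.0 CPM in CKO, most of it Ednrb at 118.7 and 92.0 CPM (edgeR adjusted p = 0.147). Kit, the receptor that melanoblasts depend on, was at 7.95 and 7.82 CPM.

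Neural retina markers moved with single libraries. Of 8 markers, none was called by edgeR or DESeq2 and none had an unadjusted p under 0.05 by edgeR, with a median log2 difference of 1.88. Their sum was 40.6, 5.95, 6.40 and 9.58 CPM in control libraries a to d and 26.4, 26.8, 120.6 and 13.6 CPM in CKO. CKO c, which was high in Pmel, Tyr, Tyrp1 and Dct, had the highest sum, while CKO a, high in the same genes, had a sum like that of CKO b, which was low in them. Without control a and CKO c together, the log2 difference was 1.53 for Pmel, 2.27 for Tyr, 2.57 for Tyrp1, 1.39 for Dct and -1.30 for Oca2. This pair of libraries was left out after the data had been seen. Without control a alone, Six6, Rax and Pou4f2 of the neural retina list were called higher in CKO, with log2 differences of 4.26 to 4.62 and edgeR adjusted p of 0.0185 to 0.0435.

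**Figure D5:**
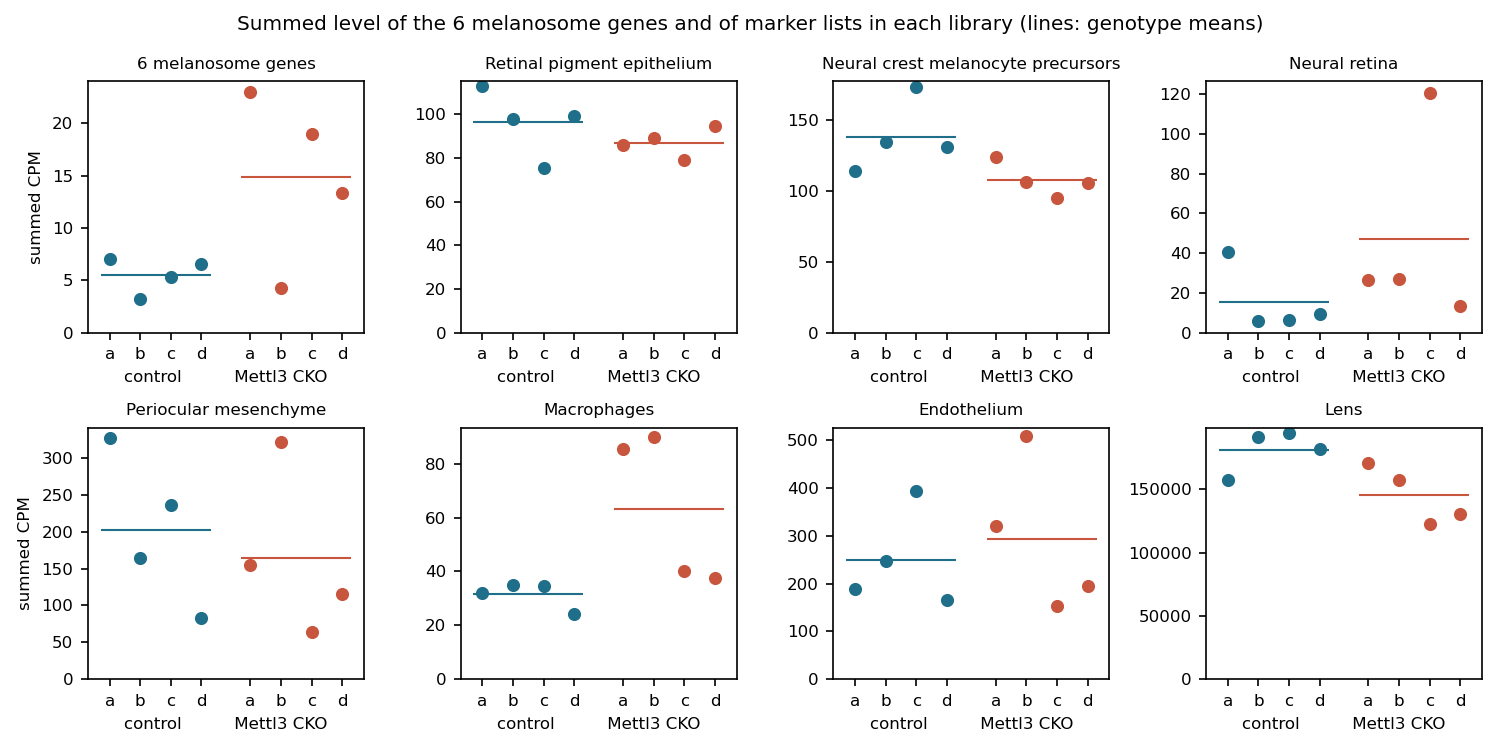
Summed CPM of the 6 melanosome genes and of marker lists in each library, on linear axes, with control and CKO libraries as points. The lists are retinal pigment epithelium, neural crest melanocyte precursors, neural retina, periocular mesenchyme, macrophages, endothelium and lens. Neural retina is highest in CKO c (120.6 CPM), whereas the sums of retinal pigment epithelium markers lie between 75.2 and 113.1 CPM.

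The other lists were read the same way. Periocular mesenchyme markers summed to 82.9 to 327.5 CPM in control and 64.0 to 321.2 CPM in CKO, endothelial markers to 166.4 to 393.7 and 152.6 to 507.7 CPM, and markers of surface ectoderm and cornea to 7.07 to 90.0 and 9.74 to 60.6 CPM. Erythroid genes summed to 553.5 to 2120 and 425.2 to 3908 CPM. None of the genes on these 4 lists was called by edgeR or DESeq2 or had an unadjusted p under 0.05 by edgeR, and Tfap2b alone was called with 1 library, control c, left out (edgeR adjusted p = 0.0377). With no filter on low counts, edgeR called 4 erythroid genes, 3 periocular genes (Col1a1, Col1a2 and Prrx1) and 2 ectodermal genes (Krt5 and Krt14), each lower in CKO. Macrophage markers summed to 24.1 to 34.9 CPM in control and 37.5 to 90.0 CPM in CKO without overlap. Of all single genes tested, 8.95% were likewise higher in CKO without overlap. Of the 9 lens markers, none was called higher and 2 were called lower, beside 4.01% of all genes. Cryab (log2 -0.57, edgeR adjusted p = 0.0309) and Lim2 (log2 -0.57, edgeR adjusted p = 0.0307) fell, and these calls were lost in 6 and 7 of the 8 fits that left out 1 library, with adjusted p up to 0.122 and 0.118. In the fit without control c, Crybb1 was called lower as well (edgeR adjusted p = 0.0273), and Foxe3 (0.0277) and the macrophage marker Csf1r (0.0101) were called higher. Foxe3 was also called without CKO a (0.0472), with upper quartile scaling (0.0495), under the 1 CPM filter (0.0436) and by DESeq2 (0.00718), which called Csf1r too (0.0144). The part of these cell types in the levels of Oca2, Pmel, Tyr, Tyrp1 and Dct was not tested.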

How the data were processed

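Unnormalised whole-number read counts per Ensembl gene are what the authors deposited, in a single table for the 8 libraries. TRIzol was used for extraction and an NEBNext Ultra kit for libraries from polyadenylated RNA, per the labels' protocols. Reads were processed with CASAVA, HISAT2 and featureCounts on mm10, per the submitters' processing notes. Tool versions, the gene annotation used in counting and its strand setting are not given in the sources used.

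Symbols and coordinates came from GENCODE M21, which matched 42548 of 43432 IDs. The 884 others stayed in the tests. In R 4.3.3 with edgeR 4.0.16, filterByExpr (minimum count 10, minimum total 15, by genotype) kept 16241 genes and removed 27191. After TMM scaling, set and genotype were terms of a robust quasi-likelihood F-test, with Benjamini-Hochberg adjustment over all genes tested and a threshold of 0.05. Every adjusted p in the text is from this test unless another tool is named. Values on the log2 CPM scale had a prior count of 2. Alternatives were other scalings and filters, DESeq2 1.42.0, limma 3.58.1 (voom), other terms and leaving out each library. Code was tested on simulated data.

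The 8 genes and all lists were chosen with earlier results of these data known. Named from each list were called genes, up to 6, and the 3 with the highest mean CPM; named for likeness were the nearest 8. Other list genes that are named, such as Sox10, Rpe65, Rgr, Lrat, Mc1r, Gpr143 and Mlph, were named for their low counts after these had been seen, and Otx2, Six6, Rax, Pou4f2, Foxe3 and Prrx1 for a call under an alternative. Library totals of 19110170 to 56098211 put 3 counts at 0.0526 to 0.157 CPM, so levels below this are not resolved. Poisson intervals and these limits cover counting error only. Some results that the rule for named genes covers are left out.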

Additional observations from a re-analysis of the deposited data

Results flagged for a closer look

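In 42 groups of 4 libraries, over single genes and summed marker lists, 4 held a library far from the other 3 by Dixon's criterion (the gap to the nearest library over the whole range), where chance gives about 1 in 20. Tyrp1 in CKO b was at 0.0805 CPM, against 1.67 to 1.73 CPM in the other CKO libraries (gap over range 0.961). The erythroid sum in CKO b was 3908 CPM, against 425.2 to 911.3 CPM in the others (0.86). The neural retina sum in control a was 40.6 CPM, against 5.95 to 9.58 CPM (0.895). The neural retina sum in CKO c was 120.6 CPM, against 13.6 to 26.8 CPM (0.876).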

How the results depend on the processing

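Values of the 8 genes are a description, since the genes were chosen with the genotype contrast known. The log2 difference of Oca2 ran from -1.57 (without CKO a) to -1.20 (without CKO c) over 17 alternatives. Pmel (0.819 to 1.71), Tyr (1.33 to 2.27), Tyrp1 (1.19 to 2.57), Dct (0.771 to 1.61) and Mitf (-0.37 to -0.03) kept their sign wherever they were tested. Calls on these genes also depended on the setting, and support nothing. Pmel and Tyrp1 were called with no filter on low counts, by DESeq2, with the replicate block and without CKO b, Dct with no filter and without CKO b, and Tyr with no filter. The value of r between Oca2 and the pigment score was -0.57 (rho -0.64), -0.81 without CKO b, -0.30 without CKO c and -0.31 without the 2 farthest libraries. For deviations from the mean of each genotype and set it was 0.27, and with set and genotype fitted out 0.05. The negative values are thus not a relation within genotypes.

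Counts of called genes moved more. For genotype, 1706 genes were called, 665 with the replicate block, 462 without control a and CKO c together (chosen after seeing the data) and 503 (without control d) to 2553 (without control c) with 1 library left out. For set, 69 were called, 678 with no filter, 388 by DESeq2, 24 with set as the only term and 16 (without CKO d) to 649 (without control c) with 1 library left out. For the interaction, 0 were called, 918 with no filter, 626 by DESeq2 and 0 to 1984 (without control d) with 1 library left out. The cause was not tested. RLE and upper quartile scaling moved the median of all genes by 0.0105 and -0.00619 (log2).

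Letters a to d are shared by the genotypes. Deviations of libraries with the same letter correlated at -0.187 to 0.279, over 0.1 in 1 of 4 pairs, and 2 of 8 libraries correlated best with their own letter, so the letters were not taken as pairing. At 19110170 to 56098211 counts per library, Tyr, Mlana and Slc45a2 are limited by depth.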
